A study of Mus musculus with 9 samples.

Results

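The miR-378 family was followed through small RNA-seq libraries that differ in how adapters were joined to the RNA. The family was read as 3 members, which are the 5′ ends of miR-378-3p and miR-378-5p and the hairpin of the copy Mir378c, among 2954434 distinct 5′ ends with a count in any of the 9 libraries. The ends of miR-378-3p and miR-378-5p were taken where the reads per 1000000 mapped reads (RPMM) equalled the values listed by the study for these names, and the Mir378c hairpin was placed by the reads it shares with miR-378-3p. Starts of miR-378-3p shifted by 1 base were added, and so were the further copies Mir378b and Mir378d, which share reads with miR-378-3p.

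MIN6 is an insulin-secreting line from a mouse beta-cell tumor, grown here in DMEM with 25 mM glucose and 10% heat-inactivated serum. Illumina TruSeq and Illumina v1.5 adapters were each used for 3 MIN6 libraries read on the GAIIx (TS-GAIIx and v1.5-GAIIx), and both sets came from 1 sequencing center. Bioo Scientific NEXTflex V2 adapters, which carry random bases at the ligation boundary, were used for 1 MIN6 library read on the HiSeq at another center and date (NF-HiSeq), so that kit, RNA, platform, center and date cannot be told apart there. Its RNA had also served a TruSeq library read on the HiSeq (TS-HiSeq), which was not analysed here and is none of the 3 TS-GAIIx libraries. Liver RNA of 1 female C57BL/6J mouse, bought at 9 weeks of age, injected with saline and fasted overnight, gave 1 TruSeq and 1 NEXTflex library on the HiSeq (TS-HiSeq-ML and NF-HiSeq-ML). That mouse is a single animal, and no liver value has a biological replicate. By the study's methods, RNA was extracted with TRIzol at NIH and with a Norgen kit at UNC and for the liver. Both GAIIx sets were sequenced at NIH, so extraction cannot be told apart from the other differences between them and the HiSeq libraries.

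miR-378 is processed from an intron of Ppargc1b, the gene of the coactivator PGC-1β, which raises transcription of mitochondrial and lipid genes. The 3p arm is the abundant one in most tissues and is called the guide, while the 5p arm, known also as the star strand, is usually scarce. In mice the family has been linked to fatty acid oxidation, hepatic insulin signaling and energy balance. A mature miRNA chooses its targets chiefly by its seed, bases 2 to 8 from the 5′ end, so a shift of the start by 1 base changes the seed.

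Both arms of miR-378a lie on chromosome 18 in the minus strand, inside an intron of Ppargc1b and on the strand of that gene, and the hairpin spans 61397835 to 61397900 in GRCm38. In the mm9 coordinates of the deposited alignments the 3p arm starts at 61557512 and the 5p arm at 61557550. Mir378b lies at chr11:88352773-88352864 on the plus strand, in an intron of Msi2 and opposite to that gene. Mir378c lies at chr14:46954830-46954928 on the minus strand, in an intron of Samd4 and again opposite to it. Mir378d lies at chr10:126710282-126710391 on the minus strand, where no other gene is annotated. No read fell on the opposite strand of any of the 4 hairpins in any library.

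The copies differ from miR-378-3p by few bases, which decide whether a read can be told from it. Positions are counted from 1 at the 5′ end of miR-378-3p, whose base is written first. The mature form miR-378c differs by G21C alone, so that a read of 20 bases or fewer fits both. The mature form miR-378d differs by A6C and C22U, and A6C lies in the seed. The mature form miR-378b starts 1 base further downstream, which moves its seed, and differs by G21A.

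The libraries held 6644520 to 25566100 mapped reads, and 3 reads, used here as the smallest count to be read as a level, equalled 0.117 to 0.451 RPMM. miR-375-3p, a beta-cell miRNA, was at 64950 to 186300 RPMM in the 7 MIN6 libraries and at 40.0 and 26.7 RPMM in TS-HiSeq-ML and NF-HiSeq-ML. miR-122-5p, the hepatocyte miRNA, was at 17240 RPMM in TS-HiSeq-ML and 532500 RPMM in NF-HiSeq-ML, so it took more than 50% of the reads of the latter. It was at 0.150 to 2.38 RPMM in the TruSeq and v1.5 MIN6 libraries but at 127.7 RPMM in NF-HiSeq, and its part in the values of NF-HiSeq was not tested.

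miR-378-3p was the most abundant member in every library. It was at 1851, 1824 and 1834 RPMM in the 3 TS-GAIIx libraries and at 3002, 2949 and 3180 RPMM in the 3 v1.5-GAIIx libraries. The NF-HiSeq library held 1155 RPMM, while TS-HiSeq-ML held 11385 RPMM and NF-HiSeq-ML 7984 RPMM. All v1.5 libraries lay above all TruSeq libraries of MIN6, NF-HiSeq lay below both, and both liver libraries lay above every MIN6 library. Among the miRNAs listed by the study with a start found here, miR-378-3p ranked between 45 and 61 of 262 in MIN6 and at 11 and 13 of 128 in liver.

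The v1.5 mean of 3044 ± 121 RPMM was 1.66-fold the TruSeq mean of 1836 ± 14.0 RPMM (SD, n = 3 each). The log2 fold change was 0.73 with a standard error of 0.048, at an adjusted p of 1.74e-05 (quasi-likelihood test of edgeR, p-values adjusted by Benjamini-Hochberg across every 5′ end tested). All 3 members were called in this comparison, in which 80.0% of the 18424 5′ ends tested were called, 51.5% higher in v1.5 and 28.5% higher in TruSeq. The kits therefore differed at most 5′ ends, and a call by itself sets no member apart. The split by direction was 9488 higher and 5247 lower in v1.5, and came closer to even at 8054 and 6429 with TMM factors and at 6924 and 5730 with DESeq2. Among the 960 tested ends with at least 100 RPMM in any of the 6 libraries, 91.0% were called.

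The size of the miR-378-3p change depended on the scale. The median log2 fold change of all ends tested was 0.83, so miR-378-3p stood slightly below it, at percentile 48.5 of all ends, while the median of ends with at least 100 RPMM was 0.00. With TMM factors the median of all ends dropped to 0.32 and miR-378-3p to 0.23 with an adjusted p of 0.116 by edgeR. With DESeq2's own size factors it was 0.21 with an adjusted p of 0.124. The direction held on these scales but the call did not.

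**Figure D1:**
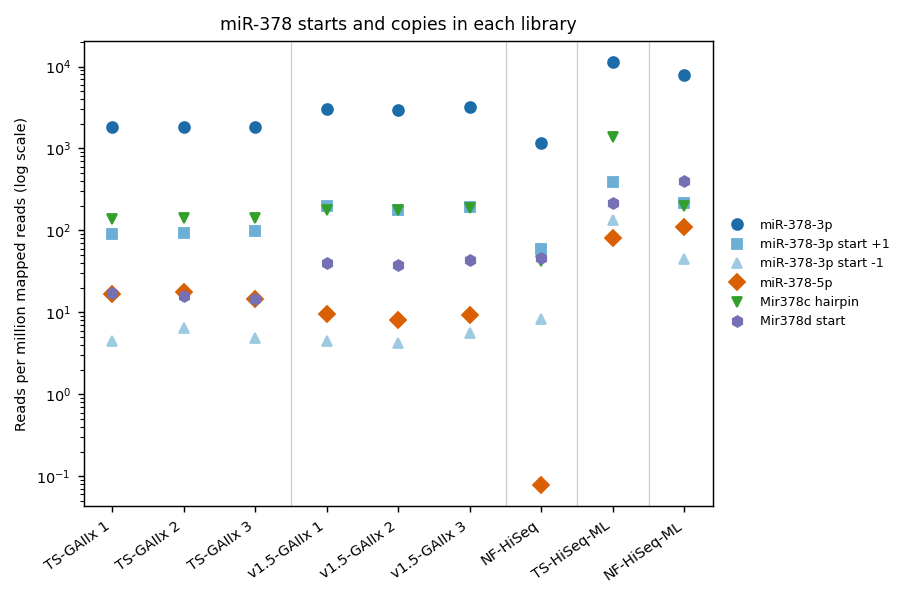
Level of each miR-378 start or hairpin in each library, in RPMM on a log scale, with 1 point per library and member. miR-378-3p is highest in all 9 libraries, and miR-378-5p drops to 0.0782 RPMM, or 2 reads, in NF-HiSeq, while all other miR-378-5p points lie at or above 8.17 RPMM.

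miR-378-5p, the star strand, moved the other way between the Illumina kits. The TS-GAIIx libraries held 16.7, 18.0 and 14.4 RPMM, and the v1.5-GAIIx libraries 9.64, 8.17 and 9.39 RPMM, so every v1.5 library lay below every TruSeq library. Its log2 fold change was -0.84 with a standard error of 0.138 and an adjusted p of 0.00105 (edgeR). The groups of 3 did not overlap for miR-378-3p, miR-378-5p or Mir378c, and 84.0% of all ends tested did not overlap either.

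The ratio of the arms followed from these opposite moves. miR-378-5p made up 0.892%, 0.975% and 0.781% of both arms in TS-GAIIx and 0.320%, 0.276% and 0.294% in v1.5-GAIIx. The difference of the means was -0.586 percentage points, with an exact two-sided permutation p of 0.1, the smallest that 3 against 3 libraries allow, and an adjusted p of 0.143 over 10 shares compared in this way. In NF-HiSeq the 5p arm was 0.00677% of both arms, in TS-HiSeq-ML 0.696% and in NF-HiSeq-ML 1.38%. The 3p arm thus exceeded the 5p arm 71.6-fold in NF-HiSeq-ML, 101.5-fold to 142.6-fold in the TruSeq libraries and 311.4-fold to 361.0-fold in the v1.5 libraries.

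In NF-HiSeq the 5p arm was almost absent. Only 2 reads of miR-378-5p were counted there among 25566100 mapped reads (0.0782 RPMM, exact Poisson 95% interval 0.00947 to 0.283, counting error only), below the level that 3 reads give. Both reads were 22 bases long. At the same kit, NF-HiSeq-ML held 1605 reads or 111.6 RPMM (interval 106.2 to 117.1), against 79.8 RPMM in TS-HiSeq-ML (interval 75.6 to 84.2). Reads of 22 bases were the commonest form of the 5p arm in all 9 libraries, and reads on alignments with a count that is not whole made up at most 1.05% of it.

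**Figure D2:**
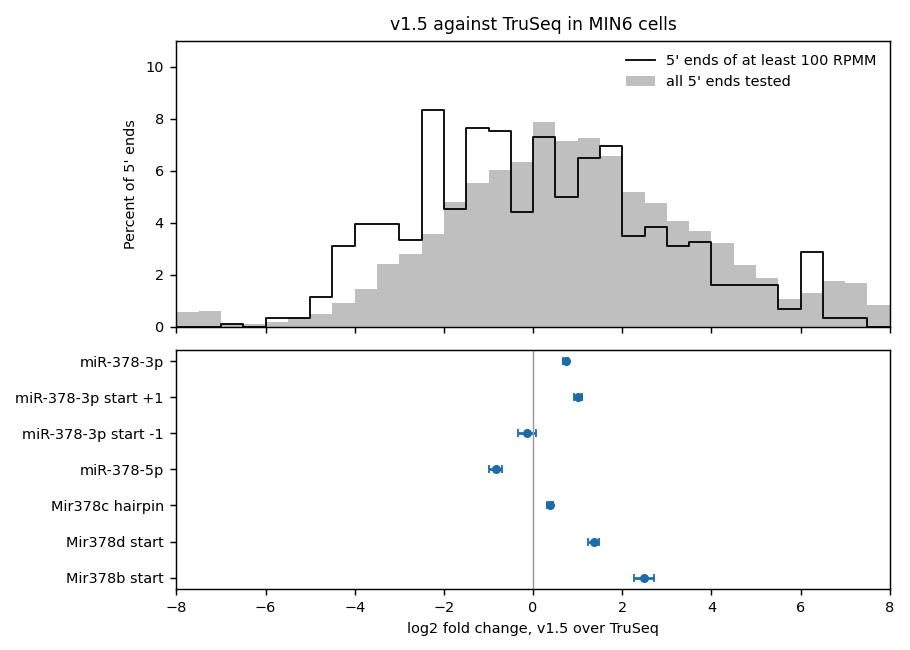
Log2 fold change of v1.5 over TruSeq in MIN6 cells. Top, distribution over the 18424 5′ ends tested in bins of 0.5, as percent of ends, with 551 ends beyond 8 on either side not drawn. Bottom, each miR-378 start or hairpin with its standard error, where miR-378-3p stands at 0.73, miR-378-5p at -0.84 and Mir378c at 0.38.

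The start of miR-378-3p was sharp. The reference start held 93.3% to 95.3% of the count on the miR-378a hairpin in the 9 libraries. The start 1 base downstream, whose seed is that of miR-378b, took 90.9, 92.2 and 98.9 RPMM with TruSeq and 197.8, 177.4 and 192.9 RPMM with v1.5 in MIN6. It was at 59.0 RPMM in NF-HiSeq, 388.5 RPMM in TS-HiSeq-ML and 216.9 RPMM in NF-HiSeq-ML. The kits did not overlap in MIN6, and the log2 fold change of 1.01 had a standard error of 0.084 and an adjusted p of 4.66e-05 (edgeR).

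As a share of the reads at the 3 starts, the downstream start took 4.86% ± 0.224 in TS-GAIIx and 5.85% ± 0.281 in v1.5-GAIIx (SD, n = 3). All v1.5 libraries were higher, at an exact permutation p of 0.1 (adjusted p 0.143). The share was lower in liver, at 3.26% in TS-HiSeq-ML and 2.63% in NF-HiSeq-ML, and 4.83% in NF-HiSeq. The start 1 base upstream was rare in MIN6, at 4.27 to 6.5 RPMM in the TruSeq and v1.5 libraries, which overlapped (log2 fold change -0.14, adjusted p 0.540, edgeR). It was at 8.37 RPMM in NF-HiSeq, 133.6 RPMM in TS-HiSeq-ML and 44.4 RPMM in NF-HiSeq-ML.

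The hairpin of Mir378c held counts in all 9 libraries, with 136.9, 140.5 and 143.3 RPMM for TS-GAIIx and 179.4, 179.8 and 189.9 RPMM for v1.5-GAIIx. It was at 42.6 RPMM in NF-HiSeq, 1364 RPMM in TS-HiSeq-ML and 195.8 RPMM in NF-HiSeq-ML. The v1.5 libraries lay above the TruSeq libraries, with a log2 fold change of 0.38, a standard error of 0.072 and an adjusted p of 0.00203 (edgeR). The sign was not stable: with TMM factors the value was -0.12 and with DESeq2 -0.13, neither of them called. The size was not stable either, since alignments without edits alone gave 1.86 (adjusted p 1.16e-06, edgeR) and whole-number counts alone gave 3.61 with a standard error of 1.19 (adjusted p 0.0431, edgeR).

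Almost none of this count was particular to Mir378c. Reads rebuilt from the alignments showed that 98.9% to 100% of the Mir378c count in each library lay on reads that were also placed on the miR-378a hairpin with an equal count. Reads that match Mir378c without a mismatch through at least base 21, and so carry its own base of G21C, numbered 0 to 11 per library. In TS-HiSeq-ML they were 7 of a count of 22494, and in NF-HiSeq they were 0 of 1090. The level of Mir378c itself could therefore not be separated from that of miR-378-3p by these counts beyond those few reads.

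A whole-number count did not mark a read as unshared. In TS-HiSeq-ML 94.2% of the Mir378c count that was shared with miR-378a carried whole numbers, in v1.5-GAIIx replicates 2 and 3 it was 85.8% and 85.2%, and in TS-GAIIx replicate 3 it was 0.348%. A read placed at several positions had been divided evenly, so a total that is a multiple of the number of places gives a whole share. For miR-378-3p itself, counts that were not whole made up 1.76% to 11.8% of the start. A further 0.0362% to 10.6% was whole but shared with a copy. Counts that were whole and shared with no copy made up 79.7% in TS-HiSeq-ML and 87.1% to 94.3% in the other libraries.

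What filled the Mir378c hairpin differed by kit. In TS-GAIIx, reads with the form of miR-378-3p with an added U made up 66.3%, 68.2% and 67.6% of the Mir378c count. Reads of 20 bases, which fit miR-378-3p and miR-378c alike, made up 20%, 19.2% and 19.2%. In v1.5-GAIIx the order was reversed, with 22.2%, 24.0% and 24.5% for added U and 61.0%, 61.5% and 61.4% for 20-base reads. TS-HiSeq-ML had 80.5% with added U, NF-HiSeq 62.6% and NF-HiSeq-ML 52.8%. The Mir378c counts of the Illumina kits in MIN6 thus differed in which read form led.

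**Figure D3:**
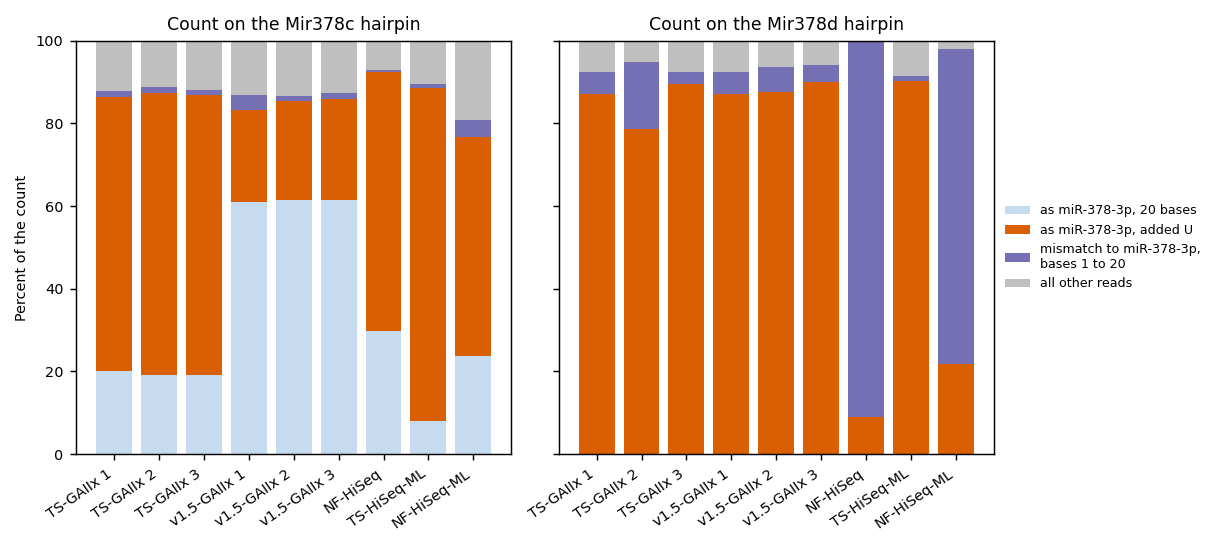
Make-up of the counts on the Mir378c (left) and Mir378d (right) hairpins in each library, as percent of the count, by read form relative to miR-378-3p. On Mir378c, added-U reads lead in all libraries but those of v1.5, where 20-base reads make up 61.0% to 61.5%, and on Mir378d reads with a mismatch in bases 1 to 20 make up 91.1% and 76.0% in the NEXTflex libraries.

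The 3′ end of miR-378-3p was then compared with the divided reads counted whole again. Adding back the shares at the copies and at 5 further places raised the level of miR-378-3p by 1.11-fold to 1.24-fold, to 2058 to 2076 RPMM in TS-GAIIx, 3392 to 3624 RPMM in v1.5-GAIIx, 1279 RPMM in NF-HiSeq, 14063 RPMM in TS-HiSeq-ML and 9135 RPMM in NF-HiSeq-ML. Of the further places, that on chromosome 11 shared reads only in TS-HiSeq-ML, at a count of 7455, and v1.5-GAIIx replicate 2, at 299.7. The order of the libraries was as before. The log2 fold change of v1.5 over TruSeq became 0.75, against 0.73 as deposited.

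The 22-base form that matches the genome was the commonest in every library. It made up 54.6% ± 0.50 in TS-GAIIx and 55.5% ± 1.62 in v1.5-GAIIx (SD, n = 3), which overlapped, 55.1% in NF-HiSeq, and 39.9% and 39.7% in TS-HiSeq-ML and NF-HiSeq-ML. The 20-base form took 3.96% ± 0.0347 in TS-GAIIx and 9.68% ± 0.0972 in v1.5-GAIIx, without overlap (exact permutation p of 0.1, adjusted p 0.143). It took 2.99% in NF-HiSeq, 2.36% in TS-HiSeq-ML and 1.53% in NF-HiSeq-ML.

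Untemplated additions, bases at the 3′ end that the hairpin does not encode, are known to be put on mature miRNAs by terminal nucleotidyl transferases. An added U was carried by 10.2%, 10.5% and 10.6% of miR-378-3p reads in TS-GAIIx and by 4.45%, 4.58% and 4.71% in v1.5-GAIIx, all TruSeq libraries being higher (exact permutation p of 0.1, adjusted p 0.143). It was carried by 18.3% of reads in TS-HiSeq-ML, against 4.35% in NF-HiSeq-ML from the same liver RNA and 4.82% in NF-HiSeq. An added A was carried by 6.16%, 7.13% and 6.79% of reads in TS-GAIIx and by 8.73%, 9.24% and 9.29% in v1.5-GAIIx, again without overlap (exact permutation p of 0.1, adjusted p 0.143). It reached 17.1% in TS-HiSeq-ML and 27.5% in NF-HiSeq-ML, and was 7.87% in NF-HiSeq.

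The liver therefore had more reads with added A than MIN6 within each of the 2 kits, while added U was high in TruSeq libraries of both sources and under 5% in all v1.5 and NEXTflex libraries. With 1 library per kit in liver this has no replicate check there. The rate of a tail cannot be told apart from how well each adapter joins to a tailed end.

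**Figure D4:**
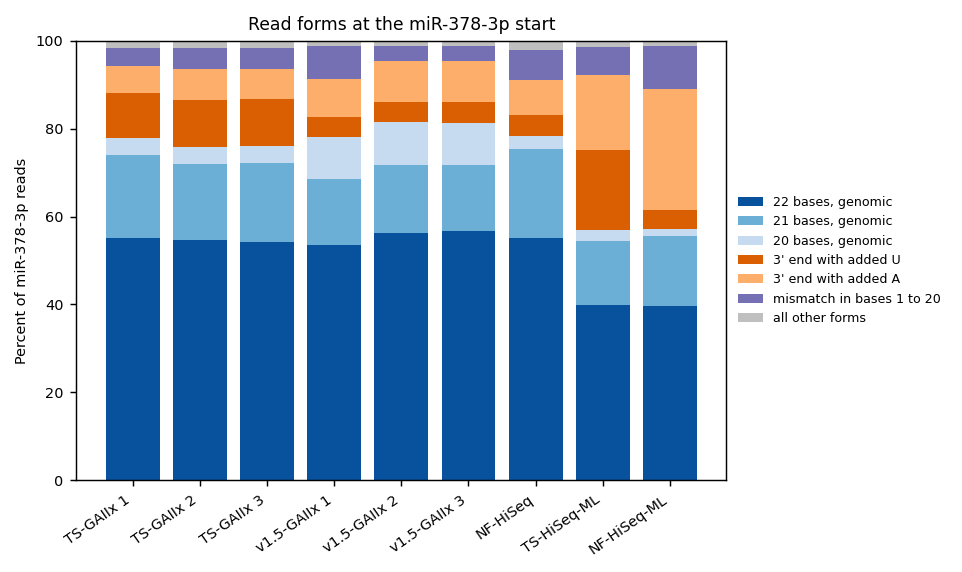
Read forms at the miR-378-3p start in each library, as percent of reads with divided reads counted whole. The 22-base genomic form leads everywhere, from 39.7% to 56.6%, added U is largest in TS-HiSeq-ML at 18.3%, and added A is largest in NF-HiSeq-ML at 27.5%.

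The count on Mir378d, the copy with a changed seed, was made of other reads in the NEXTflex libraries than in the TruSeq and v1.5 libraries. Its start was at 17.2, 15.9 and 14.4 RPMM in TS-GAIIx, at 40.3, 38.1 and 43.0 RPMM in v1.5-GAIIx and at 46.5 RPMM in NF-HiSeq. It was at 213.6 RPMM in TS-HiSeq-ML and 401.2 RPMM in NF-HiSeq-ML. The v1.5 libraries lay above the TruSeq libraries (log2 fold change 1.36, standard error 0.117, adjusted p 5.42e-05, edgeR). In the TruSeq and v1.5 libraries 83.8% to 94.1% of the Mir378d count was shared with miR-378a at an equal count, and 78.7% to 90.2% of it was reads with an added U. In NF-HiSeq and NF-HiSeq-ML only 50.8% and 58.9% was shared.

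The NEXTflex libraries also held more reads with C at base 6 than the others. Of reads at the family start that otherwise match miR-378-3p over the first 20 bases, 4.93% carried A6C in NF-HiSeq (1507 reads) and 5.03% in NF-HiSeq-ML (5737 reads). In the other 7 libraries the share was between 0.00508% and 0.149%, from 2 to 28 reads. The NEXTflex values lie far apart from all others, in both MIN6 and liver. Other changes of base 6 were raised there too. Of 21-base and 22-base miR-378-3p reads, A6G took 0.45% in NF-HiSeq, 0.641% in NF-HiSeq-ML and 0.0646% to 0.157% elsewhere. On this measure A6U took 0.0825% and 0.0778% in the NEXTflex libraries and at most 0.0189% elsewhere. Reads of at least 21 bases that match Mir378d without a mismatch numbered 335 and 1151 in NF-HiSeq and NF-HiSeq-ML and 0 to 5 in the others. Of these, 326 in NF-HiSeq and 1049 in NF-HiSeq-ML were 21 bases long and so do not reach the base of C22U.

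Most 22-base reads with A6C did not carry the other Mir378d base, C22U. They ended in C at base 22 in 871 cases and in U in 9 cases in NF-HiSeq, and in 2571 and 102 cases in NF-HiSeq-ML. Reads with A at base 6 showed a like pattern, with 18021 against 212 in NF-HiSeq and 52220 against 2349 in NF-HiSeq-ML. The ratio of 22-base reads ending in C to 21-base reads was 2.67 with C and 2.72 with A at base 6 in NF-HiSeq, and 2.45 and 2.5 in NF-HiSeq-ML. The 21-base reads with A6C fit Mir378d without a mismatch and were counted there whole.

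A different change, A16G, was found in all libraries. Of 21-base and 22-base miR-378-3p reads with at most 1 mismatch before base 21, 3.23%, 3.67% and 3.8% carried it in TS-GAIIx and 1.97%, 1.89% and 2.09% in v1.5-GAIIx, without overlap (exact permutation p of 0.1, adjusted p 0.143). It was at 2.34% in NF-HiSeq, 5.01% in TS-HiSeq-ML and 4.83% in NF-HiSeq-ML, so both liver libraries lay above all MIN6 libraries. It was the commonest of 60 possible changes in 8 of the 9 libraries, the exception being NF-HiSeq, where A6C led. This measure leaves out the 21-base reads that were placed only at Mir378d. The second change in the TruSeq and v1.5 libraries took 0.310% to 0.538%, and a median change took at most 0.0314%.

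**Figure D5:**
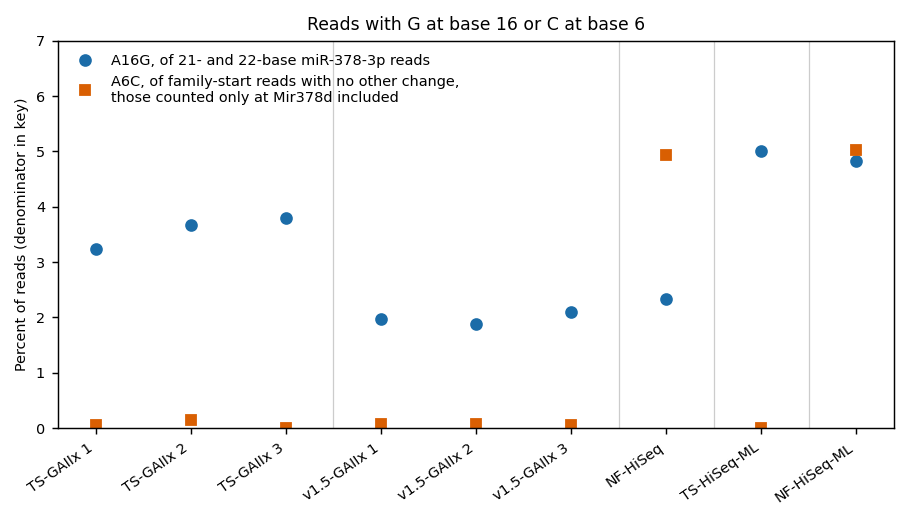
Percent of reads with A16G (circles) or A6C (squares) in each library, 1 point each. The marks have different denominators and are not to be ranked against each other, since A16G is of 21-base and 22-base miR-378-3p reads and A6C is of reads at the family start with no other change in the first 20 bases, those counted only at Mir378d included. A6C stands near 5% in the 2 NEXTflex libraries and at or below 0.149% in the other 7, while A16G is present in all 9, from 1.89% to 5.01%.

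In v1.5-GAIIx replicate 1, 7.42% of miR-378-3p reads had a mismatch in the first 20 bases, against 3.35% and 3.48% in replicates 2 and 3. G4U at 0.538% and G4A at 0.462% were its commonest changes after A16G, which was not so in any other library. Leaving this library out gave a log2 fold change of 0.74 for miR-378-3p. Mir378b held the least, with 0.230 to 0.401 RPMM for TS-GAIIx, 1.87 to 2.14 RPMM in v1.5-GAIIx and no read in NF-HiSeq, where 3 reads equal 0.117 RPMM. Its start passed the filter on low counts only through the v1.5 libraries, and of the whole hairpin count 73.0% to 100% was shared with miR-378a.

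miR-378-3p was lower in the NEXTflex library than in the TruSeq libraries of both sources. In liver the RNA and the platform were shared, while in MIN6 the kit cannot be told apart from the other differences given above. The ratio was 0.701 in liver (95% interval of the counts 0.696 to 0.706) and 0.629 in MIN6, where it ranged from 0.624 to 0.633 against the 3 TS-GAIIx libraries. With the reads at named miRNAs as the library size, the liver ratio dropped to 0.408. Over all 5′ ends of at least 100 RPMM the median ratio was 0.160 in liver and 0.205 in MIN6, and 71.5% and 61.3% of these ends were more than 2-fold lower with NEXTflex, so the ratio of miR-378-3p stood above both medians. More than 2-fold higher were 15.1% in liver and 26.3% in MIN6. There is no test for these pairs of kits, since 1 library stands on at least 1 side.

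For miR-378-5p the same ratio was 1.40 in liver (interval 1.30 to 1.5) and 0.00478 in MIN6 (counting interval 0.000579 to 0.0173). With the reads at named miRNAs as the library size, the liver ratio turned to 0.813. With 1 RPMM added to both sides the MIN6 ratio was 0.0621, and without edited alignments 0.00271. The Mir378c count was 0.143-fold in liver (interval 0.138 to 0.149) and 0.304-fold in MIN6, and its 3′ tails differed as given above. The liver ratio of Mir378c was 0.0835 by named miRNAs, 0.0551 from whole-number counts alone and 0.430 without edited alignments. From whole-number counts alone, the MIN6 ratio turned to 2.22. The count at the Mir378d start was higher with NEXTflex in both sources, 1.88-fold in liver (interval 1.80 to 1.96) and 2.94-fold in MIN6. That count was made of other read forms with NEXTflex than with TruSeq, as given above, so these ratios do not compare like reads.

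Liver held more miR-378-3p than MIN6 in either kit, 6.20-fold within TruSeq (6.15-fold to 6.24-fold against single MIN6 libraries) and 6.91-fold within NEXTflex (interval 6.83 to 7.0). Of ends of at least 100 RPMM, 45.0% were more than 2-fold higher and 45.8% more than 2-fold lower in liver within TruSeq, and 35.2% and 46.8% within NEXTflex. The downstream start was 4.13-fold higher within TruSeq and 3.67-fold within NEXTflex. miR-378-5p was 4.88-fold higher within TruSeq (4.44-fold to 5.53-fold), while within NEXTflex the ratio of 1426 rested on the 2 reads of NF-HiSeq and had an interval of 394 to 11780, or was 104.4 with 1 RPMM added to both sides. The Mir378c count was 9.73-fold higher within TruSeq and 4.59-fold within NEXTflex. Platform, RNA source and RNA extraction differ between the liver and TS-GAIIx libraries as well. The center of the liver libraries is not given in the sources used here. Fewer cells of a type and less RNA per cell cannot be told apart.

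Intronic miRNAs of other metabolic host genes were followed in the same way. Of the 5 on the list, miR-33-3p, like miR-33-5p from an intron of Srebf2, had no start among the listed values. Higher in v1.5 were 3 of the other 4, of which a pair are one mature form, and 1 was not called, beside 80.0% of all ends called and 51.5% higher in v1.5. With so few members, nothing is read from these counts. miR-103-1-3p, from an intron of Pank3, had 361.6 ± 12.2 RPMM with TruSeq and 4138 ± 196 RPMM with v1.5, a log2 fold change of 3.52. miR-103-2-3p of Pank2 gave 3.51, but the mature form is the same and its reads are divided between both places. miR-33-5p gave 2.87 and was at 8.03 RPMM in TS-HiSeq-ML and at 0 in NF-HiSeq-ML. miR-107-3p of Pank1 was at 76.7 ± 3.28 and 72.6 ± 3.30 RPMM and was not called (log2 fold change -0.08, adjusted p 0.433, edgeR).

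The miRNAs with the profile most like miR-378-3p were found by the distance between centred log2(RPMM + 1) values over the 9 libraries, among 102 reference miRNAs listed for both sources. The nearest were miR-125b-1-5p and miR-125b-2-5p, which share 1 mature form, each at a distance of 1.40, then miR-30a-3p at 1.69, miR-99a-5p at 1.78 and miR-30a-5p at 2.20. The median distance was 4.94 and the largest 17.3. Nearness was measured over these same libraries, so a like direction follows largely from the choice and is not given as a result. miR-30a-5p was lower in v1.5, at 5375 ± 135 against 9114 ± 575 RPMM (SD, n = 3).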

How the data were processed

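Small RNA was sequenced in 7 MIN6 and 2 liver libraries. The deposited files hold expected counts per alignment: per the labels and the methods, the authors trimmed adapters with cutadapt (minimum overlap 10, error rate 0.1; for NEXTflex the 4 bases at each end instead), mapped to mm9 with Bowtie and divided a read with several equally good places evenly among them. The sums exceed the mapped reads stated by the study by 0.264% to 8.41%, for a reason not found. A fact needed to place starts is that alignments without edits end 1 base earlier in the files than edited ones.

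Here, the counts of all alignments with one 5′ end were added up and set against the stated mapped reads (RPMM). Sequences of the family are not reported here. The 2 arms were located by values equal to those listed by the study (relative tolerance 3e-05). Reads on each hairpin were rebuilt from GENCODE M21 hairpins and the edit strings, and a read was called shared when it stood at both hairpins with an equal count. For further sharing places, divided counts above 10 were used. Builds were not mixed: GRCm38 positions are from the annotation, mm9 positions from the files.

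Counts were rounded and v1.5 was tested against TruSeq with edgeR 4.0.16 (R 4.3.3) over ends with at least 10 counts in at least 3 libraries, called at an adjusted p under 0.05, with the Mir378c hairpin as 1 row. In simulated data for this comparison on 16356 ends the test recovered 93 of 94 changes of 4-fold and 46 of 72 of 2-fold, with 8 false calls. The simulation changed few ends, in both directions alike, with the same dispersion at every end. In the data most ends were called, so the simulation does not give the rate of false calls there. Shares were compared by exact permutation (SciPy 1.17.1), single libraries by exact Poisson or binomial intervals at 95%, which cover counting error only, since PCR reads without molecular identifiers are not independent. Replicates differed by more than sampling noise (chi-square per degree of freedom 34.3 to 150), and the study calls them biological replicates. The labels do not say whether they came from separate cultures, so p-values measure the spread between these libraries. Named were the members, their shifted starts, the copies sharing reads, a list of intronic miRNAs of metabolic host genes and the 5 nearest profiles. Members and lists were chosen with earlier results of these data known. Of the marker list, miR-142-3p and miR-223-3p had no listed start, and miR-126-3p, miR-143-3p, miR-145-5p and miR-451 were higher in both liver libraries than in any MIN6 library. Alternatives were TMM factors, DESeq2 1.42.0, other library sizes and filters, whole-number or exact alignments only, a replicate block and each replicate left out. Divided reads counted whole and Mir378c reads shared with no copy were added after seeing the data.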

Additional observations from a re-analysis of the deposited data

Results flagged for a closer look

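NEXTflex over TruSeq took opposite directions in the 2 sources at 2 starts. For miR-378-5p the ratio was 0.00478 in MIN6, below 1 against each of the 3 TS-GAIIx libraries, and 1.40 in liver. For the start of miR-378-3p shifted 1 base upstream it was 1.58 in MIN6, above 1 against each TS-GAIIx library, and 0.333 in liver. The difference between the sources was not tested in either case, since 1 library stands on the NEXTflex side, and in MIN6 the kit cannot be told apart from RNA, platform, center and date. With the reads at named miRNAs as the library size, the liver ratio of miR-378-5p was 0.813, on the same side of 1 as in MIN6.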

How the results depend on the processing

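Over v1.5 against TruSeq, TMM factors gave 0.23 for miR-378-3p and -0.12 for Mir378c on the log2 scale, DESeq2 gave 0.21 and -0.13, and without a filter on low counts both kept their values of 0.73 and 0.38 but lost the call (edgeR adjusted p 0.333 and 0.486), with 27355 of 718666 ends called. Ends called were 886 of 983, 438 higher and 448 lower in v1.5, when at least 100 RPMM in any 1 library replaced the filter on low counts and the fit was repeated, and 4419 of 7341 from whole-number counts. miR-378-5p was called lower in each alternative that could be run, and was not among the ends of at least 100 RPMM. Leaving out 1 replicate gave 0.70 to 0.75 for miR-378-3p, -0.93 to -0.77 for miR-378-5p, 0.36 to 0.40 for Mir378c, 14093 to 14733 ends called, 0.830 to 1.12 percentage points for the downstream start and -0.637 to -0.540 for the 5p share. Mir378c rested on few reads of its own: reads not shared with miR-378a, at counts of 2 to 4 in TruSeq and 12 to 20 in v1.5, gave 2.15, but they passed the filter only through v1.5, so this value supports no direction. It was 1.86 from alignments without edits and 3.61 from whole-number counts. As a replicate block, the numbers gave 0.73, -0.84 and 0.38 for the 3 members (edgeR adjusted p 0.000343, 0.00755 and 0.0107). This changed no call of a member, and 14508 ends were called. Deviations of same-numbered libraries correlated at 0.232, -0.0479 and 0.0470, and those of unlike number at -0.385 to 0.3. With 3 libraries per kit these values cannot decide whether the numbers pair the libraries.

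Ratios without a test moved as follows, and the cause was not tested. NEXTflex over TruSeq of miR-378-3p in liver was 0.758 with the sum of all counts as library size, 0.408 with reads at named miRNAs, 0.685 with whole numbers only, 0.657 without edited alignments and 0.650 with divided reads counted whole, and in MIN6, in this order, 0.652, 0.528, 0.658, 0.638 and 0.619. For miR-378-5p it was 1.51, 0.813 and, without edited alignments, 1.06 in liver, and in MIN6 0.0621 with 1 RPMM added, 0.00402 with named miRNAs and 0.00271 without edited alignments. For Mir378c it was 0.155, 0.0835, 0.0551 and 0.430 in liver and 0.315, 0.256, 2.22 and 0.426 in MIN6, by sum of counts, named miRNAs, whole numbers and no edits. Liver over MIN6 of miR-378-3p within NEXTflex was 7.04 with named miRNAs, 6.30 with whole numbers, 5.23 without edits and 7.14 with divided reads whole, and within TruSeq 9.12, 6.05, 5.08 and 6.80, or 5.95 with the sum of counts. For miR-378-5p it was 104.4 within NEXTflex with 1 RPMM added and 7.18 within TruSeq with named miRNAs.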

Other observations

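Divided reads of miR-378-3p were also placed outside the 4 annotated hairpins. In mm9 the largest such place started at position 71811248 of chromosome 9 (plus strand), where a count of 499.5 to 11899 per library was shared with miR-378-3p in all 9 libraries. A place at position 3544598 of chromosome 11 (plus strand) shared 299.7 in v1.5-GAIIx replicate 2 and 7455 in TS-HiSeq-ML and was not seen in the other 7 libraries. A place at 56753303 of chromosome X shared 40.5 to 529.2 in all 9 libraries. No annotation of that build was used here, so what lies there is not given.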
